A study of Mus musculus with 12 samples.

Results

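Genes of bone morphogenetic protein (BMP) signalling and its ID targets were followed in mouse ear fibroblasts on 4 kinds of alginate gel. The 9 genes are Bmp4 (ligand), Grem1 (secreted antagonist), Bmpr1a and Bmpr2 (receptors), Smad6 (inhibitory SMAD), Id1, Id2 and Id3 (ID proteins) and Bmp1, which encodes a protease and not a ligand. They were taken by symbol from a table of read counts that lists 33246 genes. All 9 passed the filter on low counts, as did 14542 genes in total. On viscoelastic gels Grem1 was lower than on elastic gels at both stiffnesses. Bmp4 and Smad6 were higher and Id1 was lower on viscoelastic gels of 2 kPa, whereas Bmpr2 was lower and Id2 was higher on viscoelastic gels of 20 kPa. Between stiffnesses Id2 alone among the 9 was called, and only between the viscoelastic gels, with 1 gene more (Bmp1) when the test was DESeq2. That Id2 call and the calls of Bmp4, Smad6 and Id1 at 2 kPa were each lost in at least 1 fit that left out 1 library.

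The study asked how the stiffness and the viscoelasticity of a substrate alter gene expression. Ear fibroblasts of male and female C57BL/6 mice aged 1 month were grown in MEF medium with fetal bovine serum, taken at passage 2, and kept for 48 h on gels after 500000 fibroblasts were seeded. The alginate carried RGD peptides to which cells adhere. Elastic gels were crosslinked covalently and viscoelastic gels were crosslinked by ions and relaxed stress slowly, and each was made at 2 kPa and at 20 kPa. This gave 4 groups of 3 samples: 2 kPa Elastic, 2 kPa Viscoelastic, 20 kPa Elastic and 20 kPa Viscoelastic. The elastic gels were the reference for viscoelasticity. Stiffness was set by the amount of crosslinker, which was calcium in the viscoelastic gels. Effects of gel type or stiffness thus cannot be told apart from those of the kind or amount of crosslinker. The study names its replicates biological, but no source used here says whether they came from separate animals or isolations, so p-values measure the spread between these samples.

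Totals ran from 36626221 to 43612804 counts per sample, so that Grem1 rested on 12221 to 24701 counts and Bmp4 on 10 to 71. All values below are CPM, meaning read counts scaled to library size, with TMM normalization, with SD over 3 samples. A gene was called when its Benjamini-Hochberg adjusted p over all 14542 genes was under 0.05 in edgeR's quasi-likelihood test. All 10 fibroblast markers were present, and most of their summed level was Fn1 (mean 43005 CPM). That sum was 75152 to 83100 CPM on 2-kPa elastic, 65918 to 70345 on 2-kPa viscoelastic, 68021 to 71150 on 20-kPa elastic and 58090 to 60633 on 20-kPa viscoelastic gels, lower on viscoelastic gels without overlap at both stiffnesses. Cartilage genes were present too: 6 of 7 chondrocyte markers passed the filter, with Col2a1 at a mean of 2839 CPM and Acan at 1139, and a summed level of 5490 to 7049 CPM on 2-kPa elastic, 5012 to 6626 on 2-kPa viscoelastic, 4713 to 4732 on 20-kPa elastic and 5279 to 6925 on 20-kPa viscoelastic gels. Markers of keratinocytes, endothelium, immune cells, Schwann cells, fat and skeletal muscle summed to at most 23.5 CPM. In bulk RNA, fewer cells of a type and less RNA per cell cannot be told apart.

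BMP ligands bind a complex of type I and type II receptor kinases at the cell surface, which phosphorylates SMAD1, SMAD5 and SMAD9. With SMAD4 these enter the nucleus and switch on target genes, of which the ID genes are the best known and Smad6 is a feedback inhibitor. Gremlin, noggin, chordin-like and follistatin proteins bind ligands outside the cell and keep them from the receptors. ID proteins pair with E proteins, a class of helix-loop-helix transcription factors, and hold them off DNA. The pathway acts in hair follicle cycling in skin and in cartilage formation.

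The sequence upstream of the start site is shown for 4 genes called in a comparison, to set the loci of the pathway side by side. RefSeq sequences (GRCm38.p6, the assembly also called mm10) were matched for 7 of the 9 genes. Each line reads 5′ to 3′ toward the RefSeq start site on the gene's own strand. It stops before the first base that lies in one of the gene's annotated exons. Capitals mark the GC-rich element GGCGCC known to be bound by SMAD1 and SMAD5 or the SMAD box CAGAC, on either strand. The Id2 stretch lies inside the annotated Id2 gene (25093799 to 25097140), downstream of that gene's annotated 5′ end.
Grem1 (chr2:113758649-113758898, minus strand): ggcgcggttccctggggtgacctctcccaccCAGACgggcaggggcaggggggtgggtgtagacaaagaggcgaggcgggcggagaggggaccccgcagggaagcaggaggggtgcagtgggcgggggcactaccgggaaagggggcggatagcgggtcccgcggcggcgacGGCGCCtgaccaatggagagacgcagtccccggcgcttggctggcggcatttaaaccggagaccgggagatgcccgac
Bmp4 (chr14:46390670-46390919, minus strand): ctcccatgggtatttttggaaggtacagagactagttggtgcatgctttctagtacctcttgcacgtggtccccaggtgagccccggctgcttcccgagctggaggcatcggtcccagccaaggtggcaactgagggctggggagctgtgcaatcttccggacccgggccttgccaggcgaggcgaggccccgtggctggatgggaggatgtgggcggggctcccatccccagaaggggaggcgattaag
Smad6 (chr9:64022060-64022309, minus strand): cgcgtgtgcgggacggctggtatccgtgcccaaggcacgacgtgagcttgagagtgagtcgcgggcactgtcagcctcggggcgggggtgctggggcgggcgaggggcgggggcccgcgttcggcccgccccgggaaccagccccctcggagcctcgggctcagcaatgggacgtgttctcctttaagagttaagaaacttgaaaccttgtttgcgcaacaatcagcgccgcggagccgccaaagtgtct
Id2 (chr12:25096254-25096342, minus strand): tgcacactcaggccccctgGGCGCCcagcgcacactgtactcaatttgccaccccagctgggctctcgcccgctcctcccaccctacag
The Grem1 stretch held GGCGCC 78 bases before the start site and CAGAC 219 bases before it. In Id2, GGCGCC stood 231 bases before the start site. Neither motif was in the Bmp4 or the Smad6 stretch. In the same 250 bases of the other 3 matched genes, GGCGCC stood 198 bases before the start site of Bmpr1a and 105 before that of Bmpr2, and CAGAC stood 167 and 68 bases before that of Id3. Their sequences are not printed. In them, 141 bases of the Bmpr1a window and all 250 of the Bmpr2 and Id3 windows lie in the genes' own annotated exons. The same is true of 161 bases of the Id2 window, of which only the 89 bases before the exon are shown. Over the 250 bases before the start, GGCGCC was in 9.59% and CAGAC in 42.2% of the 32851 mouse promoters of the table, whose median GC content was 52.4%. The GC content of the 250 bases was 72% for Grem1, 63.2% for Bmp4, 66.8% for Smad6 and 62.8% for Id2, whose window includes the 161 exon bases. A match is a stretch of letters and no measured binding site.

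Levels between genes were compared per kilobase (kb) of exon. Grem1 had the highest mean level over the 12 samples, 106 CPM per kb, and ranged from 70.3 to 147 CPM per kb. It overlapped Id3, which had a mean level of 95.7 and ranged from 91.1 to 104 CPM per kb. Id1 (mean level 64.5, range 51.2 to 75.3 CPM per kb) came next and overlapped the lower end of Grem1, then Bmpr1a (39.6) and Id2 (30.9), whose ranges over samples overlapped. Bmp1 had a mean level of 21.7 CPM per kb, Bmpr2 of 11.5 and Smad6 of 9.12, with overlap between the last 2. Bmp5, a ligand gene outside the 9, had group means of 14.7 to 19.3 CPM per kb. Bmp4 stood far below all the others, at a mean level of 0.358 CPM per kb. The antagonist gene was thus present at a far higher level than this ligand gene: the ratio of Grem1 to Bmp4 per exon length was 584 to 1281 on 2-kPa elastic gels and 155 to 229 on 2-kPa viscoelastic gels. It was 237 to 515 on 20-kPa elastic gels and 109 to 227 on 20-kPa viscoelastic gels. The ratio is built from 2 genes that are compared one by one below. It rests on 10 to 71 counts of Bmp4, so its difference between gel types is no separate result.

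**Figure D1:**
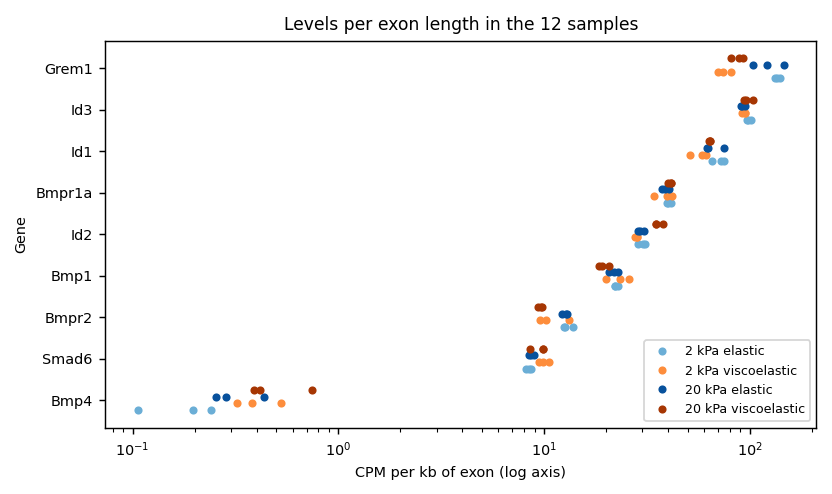
Level of each of the 9 genes in CPM per kb of exon (horizontal log axis), with 1 point per sample coloured by group. Grem1 and Id3 lie at the top near 100 CPM per kb, Bmp4 lies below 1 in all 12 samples, and the spread of each gene over gels is small beside the span between genes.

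Grem1, on mouse chromosome 2 (113746164 to 113758646, minus strand, mm10), encodes gremlin, which binds BMP2, BMP4 and BMP7 outside the cell. On 2-kPa elastic gels its level was 563, 580.2 and 547 CPM. On 2-kPa viscoelastic gels it was 306, 336 and 292 CPM. All 3 viscoelastic samples lay far below all 3 elastic ones, and the groups did not overlap. The mean was 563 ± 16.4 on elastic and 311 ± 22.6 on viscoelastic gels (SD, n = 3), so that Grem1 fell by 0.86 on the log2 scale (SE 0.101, edgeR adjusted p = 8.60e-05). On 20-kPa gels the elastic samples were at 429.7, 505 and 609 CPM, and the viscoelastic ones at 383, 338 and 367 CPM. The elastic samples were more spread out there, with the third the highest of all 12, but all of them exceeded the viscoelastic ones. The mean was 514 ± 90.1 CPM on elastic and 363 ± 22.9 CPM on viscoelastic gels, a log2 fold change of -0.50 (SE 0.101, edgeR adjusted p = 0.00177). Both calls were kept in each of 21 alternative analyses, where the log2 change ran from -0.91 to -0.81 at 2 kPa and from -0.64 to -0.37 at 20 kPa. The level of pericyte and smooth muscle markers, which is nearly all Cspg4, was also lower on viscoelastic than on elastic gels. It summed to 472 to 554 CPM on 2-kPa elastic and 324 to 336 on 2-kPa viscoelastic gels. At 20 kPa it summed to 375 to 509 CPM on elastic and 280.1 to 337 on viscoelastic gels. Between the viscoelastic gels, where Grem1 was higher at 20 kPa, these marker sums overlapped. The summed level of fibroblast markers was lower on viscoelastic gels at both stiffnesses. The part of either in the result was not tested.

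Bmp4, on chromosome 14 (46383520 to 46390669, minus strand), encodes a BMP ligand and rested on few counts. On 2-kPa elastic gels it was at 0.24, 0.54 and 0.44 CPM. The soft viscoelastic samples had 0.72, 1.18 and 0.86 CPM. All 3 viscoelastic samples were above the elastic ones. Bmp4 rose by a log2 fold change of 1.18 (SE 0.361, edgeR adjusted p = 0.0315) from 0.41 ± 0.15 to 0.92 ± 0.23 CPM. The call was lost without 2 kPa Elastic replicate 1 (log2 change 0.90, adjusted p = 0.148), 2 kPa Elastic replicate 3 (1.24, adjusted p = 0.0570), 2 kPa Viscoelastic replicate 2 (0.97, adjusted p = 0.108) or 2 kPa Viscoelastic replicate 3 (1.23, adjusted p = 0.0614), all in edgeR. At 20 kPa the values were 0.98, 0.57 and 0.64 CPM on elastic and 0.94, 1.67 and 0.88 CPM on viscoelastic gels, which overlapped. That difference was 0.67 on the log2 scale (95% interval -0.05 to 1.39, edgeR adjusted p = 0.113). The predicted genes Gm15217 and Gm15222 overlap the Bmp4 locus on the other strand and held 0 to 2 counts in any sample.

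Among the receptors, Bmpr1a encodes a type I receptor and Bmpr2 a type II receptor that activates it. Bmpr1a, on chromosome 14 (34410734 to 34503341), was the steadier of the pair, with 217 to 264 CPM over all 12 samples. It was called in none of the 4 comparisons of 2 groups by edgeR or DESeq2 and had an unadjusted p under 0.05 in 0 of them, and the ratio of its highest to its lowest group mean was 1.06. Bmpr2, on chromosome 1 (59763400 to 59879014), was at 219, 234 and 231 CPM on 20-kPa elastic gels and at 173, 168 and 175 CPM on 20-kPa viscoelastic gels. The groups were well apart and tight within. Bmpr2 fell there from 228 ± 7.86 to 172 ± 3.91 CPM, by 0.40 on the log2 scale (SE 0.0933, edgeR adjusted p = 0.00434). With a correction for exon length and GC content the Bmpr2 change at 20 kPa was smaller, -0.22 (adjusted p = 0.0192). On 2-kPa gels Bmpr2 was at 227, 249.5 and 224 CPM on elastic and at 237, 183 and 172 CPM on viscoelastic gels. The first viscoelastic sample lay among the elastic ones, and the difference of -0.24 (95% interval -0.46 to -0.03) was not called (edgeR adjusted p = 0.0764). Without that sample (2 kPa Viscoelastic replicate 1) Bmpr2 was called, at -0.40 (edgeR adjusted p = 0.00167), and with no filter on low counts it was called at -0.24 (adjusted p = 0.0390). The ribosomal RNA gene Rn18s took 1.47% of the counts in that sample and 0.925% and 0.554% in the other 2 of its group. Its highest share, 1.51%, was in 20 kPa Viscoelastic replicate 3, where Bmpr2 was at 175 CPM, beside 173 and 168 in its group. The part of Rn18s in the result was not tested. Overlapping annotated genes share the loci of Bmpr1a (Gm17110, antisense) and Bmpr2 (Gm38125), and the strand setting of the counting was not stated.

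Smad6, on chromosome 9 (63953076 to 64022059, minus strand), encodes an inhibitory SMAD that BMP signalling itself induces. It was at 26.0, 27.6 and 27.2 CPM on 2-kPa elastic gels and at 31.5, 34.0 and 30.2 CPM on 2-kPa viscoelastic gels. All 3 viscoelastic samples were above the elastic ones by a small margin. Smad6 rose from 26.9 ± 0.805 to 31.9 ± 1.96 CPM, a log2 fold change of 0.24 (SE 0.0671, edgeR adjusted p = 0.0192). The Smad6 call was lost without 2 kPa Elastic replicate 1 (0.22, edgeR adjusted p = 0.0870) or 2 kPa Viscoelastic replicate 2 (0.20, edgeR adjusted p = 0.0670). At 20 kPa Smad6 was at 28.7, 27.7 and 27.1 CPM on elastic and at 31.5, 27.5 and 31.6 CPM on viscoelastic gels, where the second viscoelastic sample fell within the elastic range. The log2 difference of 0.12 (95% interval -0.04 to 0.27) was not called (edgeR adjusted p = 0.201).

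The ID genes are the pathway's readout, and the 3 members did not share a pattern. Id1, on chromosome 2 (152736251 to 152737410), was at 87.3, 84.0 and 75.9 CPM on 2-kPa elastic and at 68.0, 71.2 and 59.4 CPM on 2-kPa viscoelastic gels, without overlap. Id1 fell from 82.4 ± 5.89 to 66.2 ± 6.11 CPM, by 0.32 on the log2 scale (SE 0.0819, edgeR adjusted p = 0.0141). The Id1 call was lost without 2 kPa Elastic replicate 1 (-0.27, edgeR adjusted p = 0.0737), 2 kPa Elastic replicate 2 (-0.30, adjusted p = 0.0507) or 2 kPa Viscoelastic replicate 3 (-0.24, adjusted p = 0.0693). At 20 kPa Id1 was at 72.7, 71.5 and 86.4 CPM on elastic and at 73.9, 74.2 and 73.4 CPM on viscoelastic gels. These groups overlapped, with a log2 difference of -0.06 (95% interval -0.25 to 0.13, edgeR adjusted p = 0.619). With the correction for length and GC content that Id1 difference was -0.24 and close to a call (edgeR adjusted p = 0.0503).

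Id2, on chromosome 12 (25093799 to 25097140, minus strand), was at 69.8, 73.5 and 75.3 CPM on 2-kPa elastic gels, at 69.99, 71.6 and 74.7 CPM on 20-kPa elastic gels and at 69.4, 69.2 and 67.4 CPM on 2-kPa viscoelastic gels. On 20-kPa viscoelastic gels it was at 85.1, 84.9 and 92.7 CPM. This last group stood above all 9 other samples. Id2 rose between elastic and viscoelastic gels of 20 kPa from 72.1 ± 2.42 to 87.5 ± 4.46 CPM, a log2 fold change of 0.28 (SE 0.0549, edgeR adjusted p = 0.00156). With the correction for length and GC content that Id2 change was 0.17 (edgeR adjusted p = 0.0195). On 2-kPa gels the Id2 difference was -0.09 (95% interval -0.21 to 0.04, edgeR adjusted p = 0.286), and with the same correction it was called, at -0.18 (edgeR adjusted p = 0.0276). Id3, on chromosome 4 (136143497 to 136145755), ran from 163 to 186 CPM over all samples and was called in none of the 4 comparisons by edgeR or DESeq2, with an unadjusted p under 0.05 in 0 of them. Its log2 difference between viscoelastic and elastic gels was -0.08 (95% interval -0.21 to 0.05) at 2 kPa and 0.07 (95% interval -0.05 to 0.20) at 20 kPa.

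Bmp1, on chromosome 14 (70474558 to 70520234, minus strand), encodes a metalloprotease that trims procollagen and cleaves the BMP antagonist chordin. It was at 203, 197 and 197 CPM on 2-kPa elastic gels and 177, 229.8 and 208 CPM on 2-kPa viscoelastic gels. On 20-kPa gels it was at 203, 194 and 183 CPM on elastic and 170.2, 184 and 163 CPM on viscoelastic gels. The ranges overlapped in all 4 comparisons. Between the 2 viscoelastic stiffnesses Bmp1 differed by -0.25 on the log2 scale (95% interval -0.44 to -0.06), which edgeR did not call (adjusted p = 0.114). DESeq2 called it (-0.26, adjusted p = 0.0471), and so did edgeR without 2 kPa Viscoelastic replicate 1 (-0.34, adjusted p = 0.0443).

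**Figure D2:**
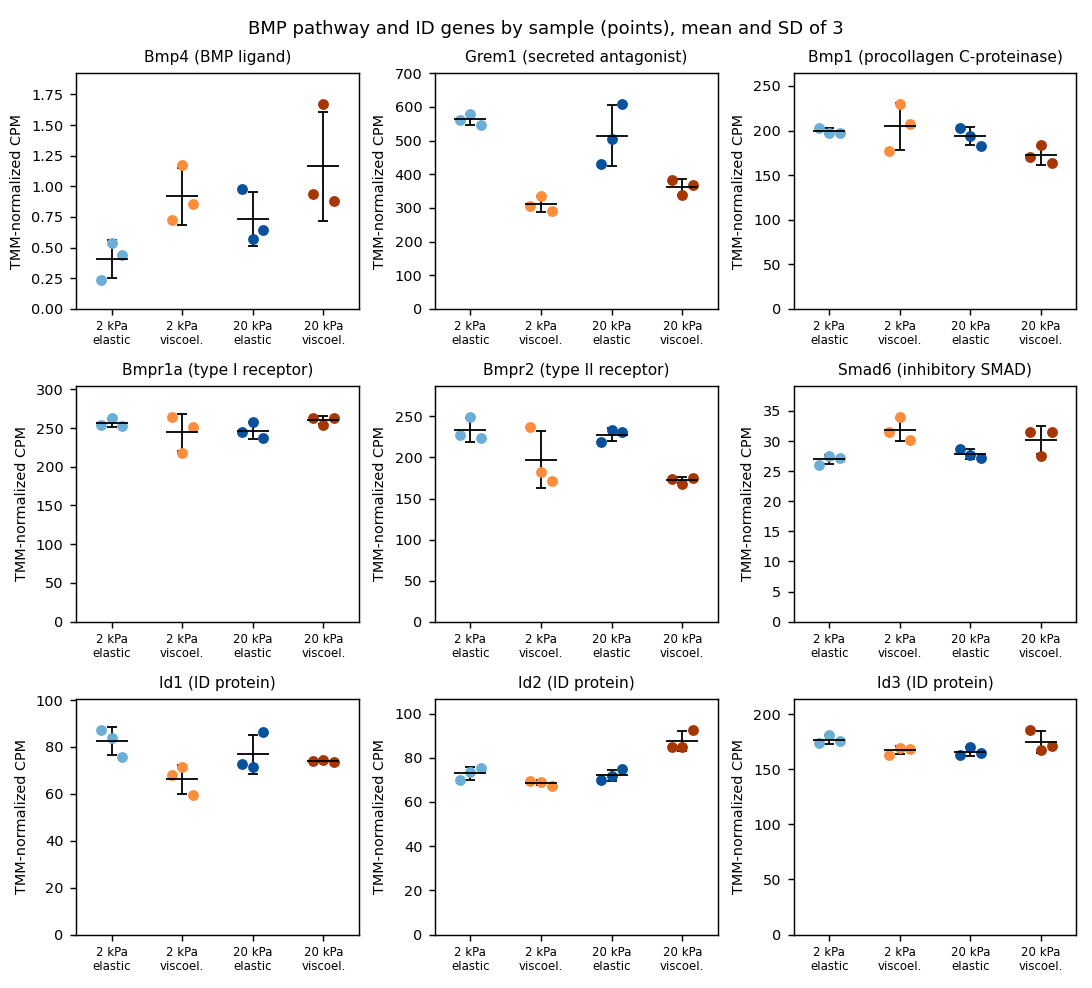
TMM-normalized CPM (vertical axes from 0) of the 9 genes in the 4 groups, with 1 point per sample and the mean and SD of 3 samples in black. The viscoelastic samples of Grem1 lie below the elastic ones at both stiffnesses (at most 383 CPM against at least 430), and Id2 stands apart on 20-kPa viscoelastic gels only, at 84.9 CPM or more.

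Viscoelasticity at 2 kPa was followed by a call for 4 of the 9 genes, 2 higher and 2 lower, against 19.9% of all genes tested (8.77% higher and 11.1% lower). With libraries scaled by total counts alone the calls over all genes were 1675 higher and 1258 lower, beside 1275 and 1617 with TMM, and those of the 9 were the same. The 2 groups did not overlap for 6 of the 9 (the 4 called genes, Id2 and Id3), against 36.3% of all genes. The median size of the log2 change was 0.24 over the 9 genes and 0.15 over all genes. At 20 kPa 3 of the 9 were called, 1 higher and 2 lower, against 33.5% of all genes (17.4% higher and 16.1% lower), so the share of the 9 was that of the background. For 3 of the 9 the groups did not overlap, against 49.9% of all genes, and the median size of the change was 0.17 beside 0.19 over all genes.

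Over both stiffnesses the mean effect of viscoelasticity was called for 5 of the 9 genes, 2 higher and 3 lower, against 40% of all genes (19.6% higher and 20.4% lower). Scaled by total counts alone, the calls over all genes were 3538 higher and 2309 lower, beside 2846 and 2971 with TMM, and Id2 joined the 5 as a call higher. Grem1 (log2 change -0.68, edgeR adjusted p = 1.93e-05), Bmpr2 (-0.32, adjusted p = 0.00141) and Id1 (-0.19, adjusted p = 0.0184) were lower. Bmp4 (0.93, adjusted p = 0.00660) and Smad6 (0.18, adjusted p = 0.00759) were higher. The Id1 mean effect was lost without 2 kPa Elastic replicate 1 (-0.17, edgeR adjusted p = 0.0513), 20 kPa Elastic replicate 3 (-0.14, adjusted p = 0.0515) or 2 kPa Viscoelastic replicate 3 (-0.15, adjusted p = 0.0512). These means use the same samples as the comparisons at each stiffness.

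Stiffness on elastic gels gave no call: 0 of the 9 genes passed in edgeR and 0 in DESeq2, with 1 (Bmp4) at an unadjusted p under 0.05, against 14% of all genes called (6.81% higher and 7.14% lower). The groups did not overlap for 2 of the 9 (Bmp4 and Id3), against 35.6% of all genes. The median size of the change was 0.06 on the log2 scale over the 9 genes and 0.13 over all genes. Bmp4 differed by 0.85 (95% interval -0.01 to 1.71, edgeR adjusted p = 0.144) and Grem1 by -0.13 (95% interval -0.36 to 0.10). The intervals of the other 7 genes lay within -0.29 and 0.20.

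On viscoelastic gels, Id2 rose with stiffness from 68.6 ± 1.10 to 87.5 ± 4.46 CPM, a log2 fold change of 0.35 (SE 0.0550, edgeR adjusted p = 0.0115). It was the 13th gene of all 14542 by p, and the one gene called of the 9, against 2.28% of all genes (1.58% higher and 0.695% lower). The groups did not overlap for 3 of the 9 (Id2, Id1 and Grem1), against 22.3% of all genes. The Id2 call was lost without 20 kPa Viscoelastic replicate 3 (0.31, edgeR adjusted p = 0.0801) and when the 2 viscoelastic groups alone were fitted (0.33, adjusted p = 0.0582). Grem1 differed by 0.22 (95% interval -0.01 to 0.45, edgeR adjusted p = 0.248) and Id1 by 0.16 (95% interval -0.03 to 0.35, adjusted p = 0.318). Averaged over both gel types, stiffness gave a call for Id2 alone (0.17, edgeR adjusted p = 0.0164), 1 of the 9 against 10.1% of all genes. That averaged Id2 call was lost without 20 kPa Viscoelastic replicate 3 (0.15, edgeR adjusted p = 0.0516).

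Whether stiffness acted differently on the 2 gel types was tested as an interaction. For Id2 the response on viscoelastic gels exceeded that on elastic gels by 0.37 on the log2 scale (SE 0.0778, edgeR adjusted p = 0.0101), the one call among the 9 against 7.56% of all genes. The other ID genes also had positive values, Id1 0.26 (95% interval -0.01 to 0.52, adjusted p = 0.200) and Id3 0.15 (95% interval -0.02 to 0.33, adjusted p = 0.258), but edgeR did not call them. For Grem1 the interaction was 0.35 (95% interval 0.02 to 0.68, edgeR adjusted p = 0.153). Without 20 kPa Elastic replicate 3, the sample in which Grem1 was highest, it was 0.49 (edgeR adjusted p = 0.0237). Rn18s took 0.839% of the counts in that sample and 1.22% and 1.29% in the other two of its group, and its part in the result was not tested.

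**Figure D3:**
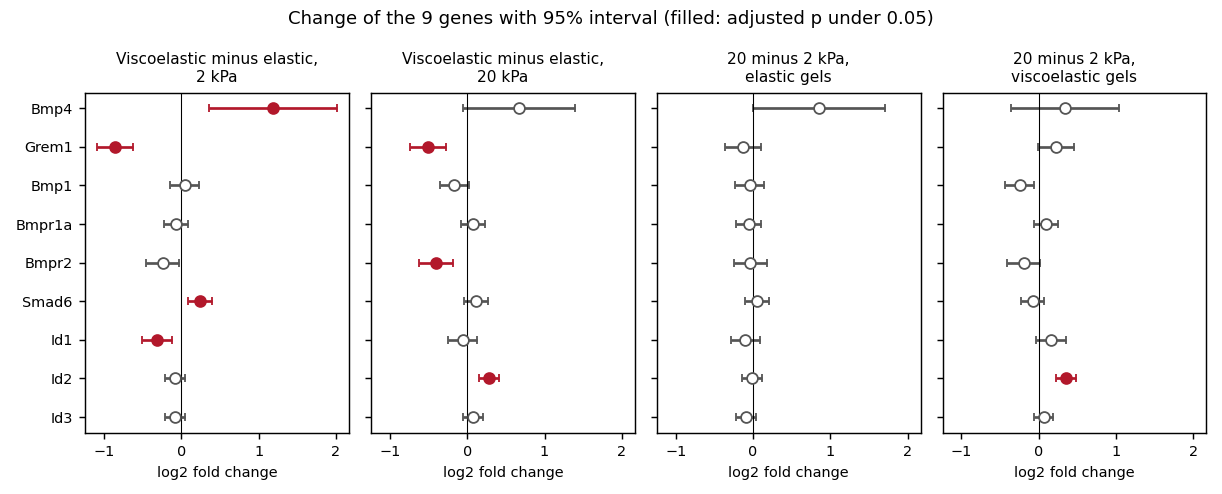
Log2 fold change (horizontal axis) of the 9 genes in the 4 comparisons, with 95% intervals; filled red points have an edgeR adjusted p under 0.05. Grem1 is left of 0 in both viscoelastic comparisons (-0.86 and -0.50), no point is filled between the elastic gels, and Id2 alone is filled between the viscoelastic gels (0.35).

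Another 64 genes of the pathway were followed by role, of which 55 passed the filter and 28 were called in at least 1 of the 4 comparisons of 2 groups. Of the 9 genes 6 were called in at least 1, against 45.7% of all genes. Viscoelasticity at 2 kPa was followed by 2 higher and 8 lower, and at 20 kPa by 12 higher and 7 lower. Stiffness was followed by 7 higher and 11 lower on elastic gels and by 2 higher and 0 lower on viscoelastic gels. The share called was 18.2% at 2 kPa and 34.5% at 20 kPa for viscoelasticity, 32.7% for stiffness on elastic gels and 3.64% on viscoelastic gels, beside 19.9%, 33.5%, 14% and 2.28% of all genes. The comparisons share samples in pairs.

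Of the other ligand genes, Bmp5 was the one called in all 4 comparisons. Soft elastic gels had 77.4, 82.1 and 73.2 CPM of Bmp5, and soft viscoelastic gels had 62.9, 55.0 and 63.0 CPM. At 20 kPa the elastic samples had 60.3, 61.0 and 56.3 CPM, and the viscoelastic samples had 71.6, 75.3 and 75.4 CPM. The soft elastic and the stiff viscoelastic samples were thus the high ones. Bmp5 fell with viscoelasticity at 2 kPa (-0.36, edgeR adjusted p = 0.00161) and rose with it at 20 kPa (0.32, adjusted p = 0.00181). Bmp5 fell with stiffness on elastic gels (-0.39, edgeR adjusted p = 0.00128) and rose on viscoelastic ones (0.30, adjusted p = 0.0342), a last call kept in 7 of 12 fits that left out 1 library. That last call was also lost with the length and GC correction (0.28, edgeR adjusted p = 0.0568) and when the 2 viscoelastic groups alone were fitted (0.28, adjusted p = 0.128).

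Bmp2 was at 2.27, 6.45 and 1.86 CPM on 20-kPa viscoelastic gels and at 0.795, 1.44 and 0.954 CPM on 2-kPa viscoelastic gels. The second stiff sample was high above the rest. Bmp2 was called higher with stiffness on viscoelastic gels (1.73, edgeR adjusted p = 0.0412) and with viscoelasticity at 20 kPa (1.48, adjusted p = 0.0114), and without 20 kPa Viscoelastic replicate 2 neither was called (0.96, adjusted p = 0.0963, and 0.70, adjusted p = 0.0810). Its first call was kept in 2 of 12 fits without 1 library. Bmp3 (1.49) and Bmp6 (0.64) were higher on viscoelastic gels of 20 kPa, and Gdf5, a ligand of joint formation, was lower on those of 2 kPa (-0.77). These 3 calls were kept in 9, 8 and 9 of 12 such fits.

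Of the other antagonists and modulators, 15 passed the filter. Between the elastic gels 9 of them (60%) were called, 3 higher and 6 lower with stiffness. Of all genes 14% were called there (6.81% higher and 7.14% lower). The calls of Fst, Chrdl2, Bmper and Bambi were kept in all 12 fits that left out 1 library. Those of Chrdl1, Crim1, Vwc2, Fstl1 and Twsg1 were kept in 10, 9, 8, 7 and 6. Without 20 kPa Elastic replicate 3 the calls were 1 higher and 3 lower, against 7.22% of all genes. Viscoelasticity was followed by 5 calls at 2 kPa, 1 higher and 4 lower, against 19.9% of all genes, and with total counts alone by 3 higher and 3 lower. At 20 kPa it was followed by 6 calls, 4 higher and 2 lower, against 33.5%. Stiffness on viscoelastic gels gave 0 calls by edgeR and 0 by DESeq2, with 2 at an unadjusted p under 0.05, against 2.28%. Fst (follistatin) rose with stiffness on elastic gels from 60.2 ± 3.43 to 91.9 ± 14.4 CPM (log2 change 0.61, edgeR adjusted p = 0.00101). It was lower on viscoelastic than on elastic gels of 20 kPa (-0.59, edgeR adjusted p = 0.000464).

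Chrdl2, a chordin-like antagonist gene, was at 20.5, 21.8 and 21.5 CPM on 2-kPa elastic gels and at 8.60 to 13.9 CPM in all 9 other samples. It fell both with viscoelasticity at 2 kPa (-0.97, edgeR adjusted p = 0.000348) and with stiffness on elastic gels (-0.996, adjusted p = 0.000340). Bmper was lower with stiffness on elastic gels (-0.38, edgeR adjusted p = 0.00184) and higher with viscoelasticity at 20 kPa (0.27, adjusted p = 0.00639). At 2 kPa Bmper was lower with viscoelasticity (-0.20, edgeR adjusted p = 0.0412), a call kept in 3 of 12 fits without 1 library and lost with total counts alone (-0.17, adjusted p = 0.0919). Chrdl1 (0.68) and Vwc2 (1.21) were also higher with viscoelasticity at 20 kPa, and Crim1 (-0.34) was lower. Twsg1 was lower with viscoelasticity at 2 kPa (-0.27) and Fstl1 was higher (0.40), and all 5 calls were kept without any 1 library.

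Of the other receptor genes, Acvrl1 (ALK1) was higher with viscoelasticity at 2 kPa (0.40, edgeR adjusted p = 0.00266) and Bmpr1b was lower with it at 20 kPa (-0.55, adjusted p = 0.00233). Smad7, the other inhibitory SMAD gene, rose with stiffness on elastic gels (0.35, edgeR adjusted p = 0.00715) and was lower on viscoelastic gels of 20 kPa (-0.57, adjusted p = 0.000172), while Smad6 was called in neither. Smurf1, a ubiquitin ligase that acts on SMADs, was lower with viscoelasticity at 20 kPa (-0.36, edgeR adjusted p = 0.00369). Of the other target genes, Msx1 and Dlx5, homeobox genes, were lower with stiffness on elastic gels (-0.31 and -0.29) and higher with viscoelasticity at 20 kPa (0.39 and 0.38). The Dlx5 call on elastic gels was kept in 11 of 12 fits without 1 library, and the other 3 in all 12. Tll1, a protease of the Bmp1 family, rose with stiffness on elastic gels from 38.9 ± 3.82 to 63.3 ± 10.2 CPM (0.70, edgeR adjusted p = 0.00231) and was lower on viscoelastic gels of 20 kPa (-0.74, adjusted p = 0.000635). Of the other called genes, Rgma (0.25), Dand5 (0.55) and Tcf4 (0.24), which encodes an E protein, were higher and Smad1 (-0.18) was lower with viscoelasticity at 20 kPa. Rgmb (-0.31), Bambi (-0.28) and Pcolce2 (-0.24) were lower with it at 2 kPa, and Id4 was higher with stiffness on elastic gels (0.36). Each of these 8 calls was lost without at least 1 library, being kept in 6 (Id4) to 11 (Dand5 and Rgmb) of 12 such fits.

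**Figure D4:**
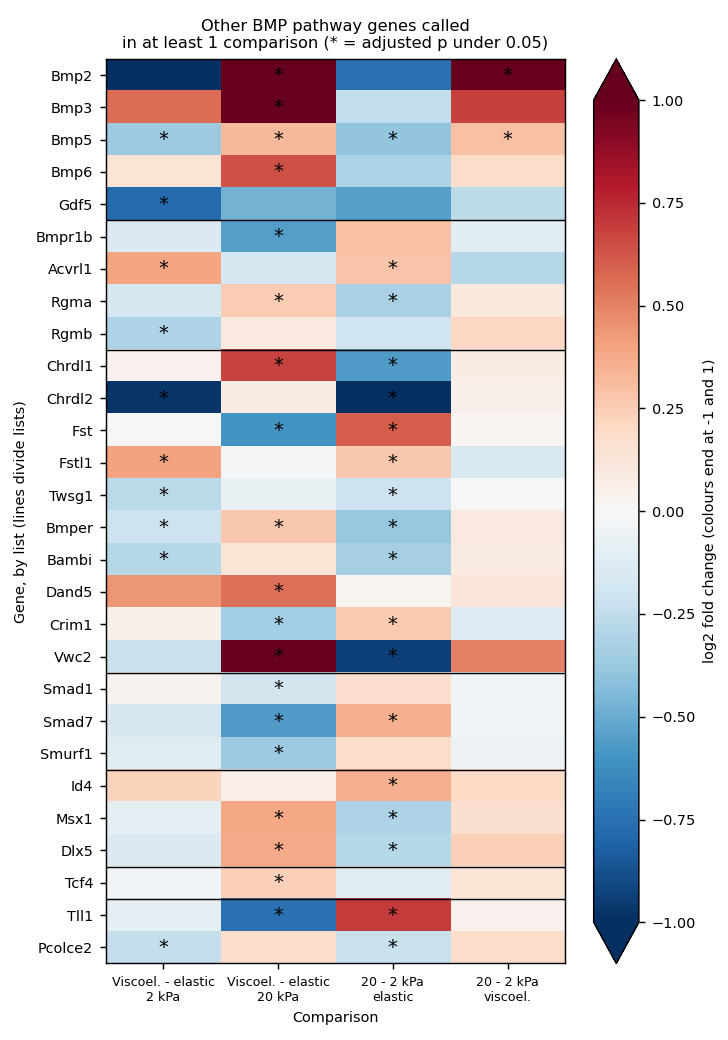
Log2 fold change (colour, ending at -1 and 1) of the 28 other pathway genes called in at least 1 comparison, with genes in rows by role and the 4 comparisons in columns; stars mark an edgeR adjusted p under 0.05. The column for stiffness on viscoelastic gels has 2 stars (Bmp2 and Bmp5), against 18 on elastic gels.

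The genes whose log2 level followed each of the 9 most closely over the 12 samples were also named, as a description over samples that share 4 groups. For Grem1 these were Enpp1 (Pearson r = 0.98), Lgr6 (0.97) and Sdc3 (0.97). For Bmp4 they were Pde4b (0.98), Kcnj15 (0.96) and Cxcl14 (0.95), and for Bmpr2 Pbrm1 (0.97), Tmx4 (0.96) and Pign (0.96). Id2 was closest to Exosc1 (0.91), Ywhab (0.91) and Ube2e1 (0.91), Id1 to Nptx1 (0.91), Stimate (0.91) and Jam2 (0.90), and Smad6 to Adk (0.91), Zfp820 (0.91) and Zfp110 (0.90). Id3 was closest to Pcolce2 (0.86), Scin (0.84) and Dis3l2 (0.83), the loosest of the 9, and Pcolce2 encodes an enhancer of procollagen cleavage by Bmp1. For Bmp1 the genes were Prkcd (0.94), Dgat1 (0.94) and Il17ra (0.92), and for Bmpr1a Spin1 (0.94), Chp1 (0.93) and Tomm20 (0.91).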

How the data were processed

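RNA-seq counts of 12 samples were analysed. Per the labels and the study's methods, the authors trimmed reads with Trimmomatic, aligned them to mm10 with STAR and counted them per gene with featureCounts; the deposited counts are raw, listed by symbol. The annotation release and strand setting were not given in the sources used here.

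The 9 genes, the pathway lists and the marker lists were chosen with earlier results of these data known. All 9 genes are named; other pathway genes are named where called in at least 1 of the 4 comparisons of 2 groups, and 3 nearest genes by Pearson r are named for each. A further gene of the lists is not reported here.

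Counts were tested with edgeR 4.0.16 (R 4.3.3; TMM; filterByExpr with minimum count 10, minimum total 15 and large group size 10; 1 coefficient per group over 12 samples). SE is the log2 change divided by the square root of F, and 95% intervals use 8 degrees of freedom. The p-values of the quasi-likelihood test rest on more degrees of freedom than these intervals. An interval can thus include 0 where the unadjusted p is under 0.05, as for Bmp4 between the elastic gels. Log2 CPM has a prior count of 2. The script was tested on simulated counts. Positions and exon lengths are from GENCODE M21, and promoters from RefSeq. Alternatives were DESeq2 1.42.0, its size factors, total counts, no filter, adjusted p under 0.01, a replicate block, a length and GC correction, only the groups compared, and each library left out.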

Additional observations from a re-analysis of the deposited data

Results flagged for a closer look

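The stiffness response of 1 of the 9 genes and of 17 of the 55 other pathway genes tested (30.9%) differed between viscoelastic and elastic gels by edgeR's interaction test, against 7.56% of all genes. For Id2 the difference was 0.37 on the log2 scale (SE 0.0778, adjusted p = 0.0101), from -0.02 on elastic to 0.35 on viscoelastic gels. Among ligands it was 2.48 for Bmp2 and 0.69 for Bmp5, and among receptors and co-receptors -0.57 for Acvrl1, 0.43 for Rgma and 0.41 for Rgmb. Among antagonists and modulators it was 1.05 for Chrdl2, 1.43 for Vwc2, 0.47 for Bmper and 0.42 for Bambi, and it was negative for Fst (-0.59), Fstl1 (-0.43) and Crim1 (-0.39). It was -0.40 for Smad7, 0.47 for Msx1 and 0.53 for Dlx5. In the Bmp1 family it was -0.65 for Tll1 and 0.41 for Pcolce2. Of these 18 calls, those of Id2, Bmp5, Acvrl1, Chrdl2, Bmper, Vwc2, Msx1 and Dlx5 were kept in all 12 fits without 1 library.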

How the results depend on the processing

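Each result was computed again under the alternatives, and Grem1 at both stiffnesses, Bmpr2 at 20 kPa and Id2 at 20 kPa were called in all 21. At an adjusted p under 0.01 the count of the 9 genes called was 1 for viscoelasticity at 2 kPa and 0 for stiffness on viscoelastic gels, for stiffness over both gel types and for the interaction. Between the 2 viscoelastic stiffnesses DESeq2 called 2, and a fit of only the groups compared called 0. For stiffness over both gel types it was 0 with the length and GC correction and 0 with that correction and a replicate block together. Without 1 library the count ran from 1 to 5 for viscoelasticity at 2 kPa, from 0 to 2 for stiffness on viscoelastic gels and over both gel types, and from 1 to 2 for the interaction. The cause was not tested. For viscoelasticity at 2 kPa the count was 5 with no filter (Bmpr2 added) and 5 with the length and GC correction (Id2 added). Over all genes, calls for stiffness on viscoelastic gels numbered 331, beside 769 by DESeq2, 653 with no filter, 154 with the replicate block, 38 with only the groups compared and 9 without 20 kPa Viscoelastic replicate 3. With total counts alone, 6 of the 9 genes were called for the mean effect of viscoelasticity, and that scaling shifted the median log2 change of all genes by under 0.1.

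No pairing of samples by replicate number was clear: correlations of same-numbered deviations ran from -0.16 to 0.31 and in no comparison were all above 0.1. Between the viscoelastic gels all were positive, at 0.184, 0.308 and 0.0483. With 3 samples a group these values cannot exclude pairing. The replicate block left the counts at 4, 3, 0 and 1 in the 4 comparisons of 2 groups, 5 and 1 for the averaged effects and 1 for the interaction. Of the other pathway genes, the block lost the stiffness calls of Bmp2 and Bmp5 on viscoelastic gels and of Pcolce2 and Twsg1 on elastic gels, and the interactions of Bambi, Crim1, Rgmb, Smad7 and Tll1.

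Signs turned for uncalled differences near 0. Viscoelasticity at 20 kPa gave -0.044 for Id3 with the length and GC correction, and -0.044 with the block added. Stiffness on elastic gels gave 0.021 for Bmp1 under both. Without 1 library, viscoelasticity at 2 kPa ran from -0.049 to 0.13 for Bmp1 and from -0.13 to 0.0072 for Bmpr1a, and at 20 kPa from -0.11 to 0.034 for Id1, which with the length and GC correction was at -0.24. Likewise stiffness on elastic gels ran from -0.065 to 0.016 for Bmpr2 and from -0.046 to 0.023 for Id2, and on viscoelastic gels from -0.018 to 0.56 for Bmp4, whose 10 to 71 counts limit its precision. Of recomputed differences of other called pathway genes, 1146 kept and 223 lost the call, and none turned sign.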

Other observations

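Over the 12 samples Grem1 and Id1 had the highest Pearson r of the 36 pairs of the 9 genes, 0.83, and 0.71 with the group means removed. On 20-kPa elastic gels the third sample was the highest for both (609 and 86.4 CPM, beside 430 to 505 and 71.5 to 72.7 CPM in the other two). Smad6 and Grem1 had r = -0.75, and 0.21 with the group means removed. Bmp1 and Bmpr2 had r = 0.13 over all samples and -0.76 with the group means removed. These are descriptions over samples that share groups, libraries and normalization.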
